A study of Homo sapiens with 10 samples.

Results

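The BCL2 family regulates the mitochondrial pathway of cell death, and 10 of its genes were followed here in a human leukemia cell line: BCL2, BCL2L1, MCL1, BAX, BAK1, PMAIP1, BBC3, BIK, BMF and BCL2L11. They were chosen by gene symbol from a deposited table of 50868 genes, and all 10 were found. Each had enough reads to be measured in every comparison. The cells are Kasumi-1, a myeloid leukemia line with the t(8;21) translocation that fuses RUNX1 to RUNX1T1, kept at 4 to 5 passages. All groups were infected with a retrovirus, and GFP-positive cells were sorted for RNA 4 days later. The 3 treated groups overexpressed an HA-tagged E protein: E2-2 (gene TCF4), E2A (gene TCF3) or HEB (gene TCF12). The control group carried the MIGR1 vector. Reads of a transduced gene and of the cells' own copy are counted together. E proteins are basic helix-loop-helix transcription factors that bind E-box motifs in DNA and take part in the complex that AML1-ETO, the fusion protein, forms in these cells. The study asked whether the 3 E proteins play different roles in this leukemia.

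Proteins of the BCL2 family decide whether the outer mitochondrial membrane is breached, which frees cytochrome c and starts caspase activation. Survival members (BCL2, BCL-XL from BCL2L1, and MCL1) hold the pore-forming effectors BAX and BAK in check. BH3-only proteins (NOXA from PMAIP1, PUMA from BBC3, BIK, BMF, and BIM from BCL2L11) bind the survival members or the effectors and promote death. In acute myeloid leukemia, BCL2 and MCL1 are known survival factors and drug targets. BCL2L1 and MCL1 each give long and short splice forms with opposed activity, and the table counts reads per gene, so these forms are not separated.

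Each group was 1 library, and counted reads ran from 14816708 in E2-2 to 17673090 in E2A. There is thus no replicate check and no p-value. Levels are in CPM, reads per 1000000 after scaling, and intervals in parentheses are 95% exact counting intervals that leave out differences between cultures. The word called is kept for genes with 30 or more reads in the 2 libraries compared, a difference of 2-fold or more and an interval on 1 side of 1. The transduced genes matched the labels: TCF4 was at 823 CPM in E2-2 and at most 0.256 elsewhere, TCF3 at 1312 in E2A and 200.4 to 254 elsewhere, and TCF12 at 836 in HEB and 145 to 168 elsewhere. All 8 markers of the leukemia line had more than 3 reads in all 4 libraries, at a summed 13138 to 20263 CPM. Most of that sum was MPO, at 11254 to 18014 CPM. Of 18 markers of other cells (lymphoid, erythroid, monocytic, epithelial or fibroblast), 9 to 11 had more than 3 reads, at a summed 71.2 to 109 CPM, and HBB and HBA1 were at 0 in every library. Much of this sum came from the epithelial marker EPCAM, at 40.8 to 55.8 CPM, and in E2-2 also from CSF1R, at 42.6 CPM. The B cell marker CD79B was at 8.97 to 11.9 CPM. Of the 7 other-cell markers measured in E2-2 against vector, 1 was called higher and 1 lower. The monocyte receptor gene CSF1R, called higher with all 3 E proteins, went from 23 reads in vector to 113 in HEB, 191 in E2A and 646 in E2-2, the same order of libraries as for BCL2 and BCL2L1 below. The other monocytic markers did not share it: LYZ had 149 reads in vector, 107 in HEB, 98 in E2A and 101 in E2-2, and CD14 had 3, 2, 2 and 1. The T cell gene CD3D, called lower with all 3, had 34, 15, 10 and 2 reads in the same order. The other T cell markers had too few reads to be measured against vector. CD3E had 9, 7, 5 and 2 reads, and CD2 went the other way in E2-2, with 0, 2, 0 and 7. Among the markers of the line, the myeloid antigen gene CD33 was called higher with all 3, with 441, 1490, 1515 and 1751 reads. Most of the line's other markers went the other way in E2-2. Without a call, 6 of the 8 had an interval below 1 there and 1 above, and the list's median log2 fold was -0.45. CD34, for example, was 1.53-fold lower in E2-2, 1.69-fold in E2A and 1.95-fold in HEB. The part of these genes in the family's values was not tested. In bulk RNA, fewer cells of a type and less RNA per cell cannot be told apart.

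Promoter sequence was examined because the transduced proteins bind E-boxes, written CANNTG. RefSeq windows of 250 bases before the transcription start (GRCh38.p14) matched 8 of the 10 genes, with 10 windows in all. Sequences of 4 windows follow, 5′ to 3′ on the gene's own strand, with each CANNTG in capitals. PMAIP1 and BCL2L1 are shown because their RNA was higher with all 3 E proteins, BAX because its RNA hardly differed, and BMF because its RNA was higher in 1 treated library and lower in the others. The windows are chr18:59899746-59899995 (plus strand) for PMAIP1, chr20:31723964-31724213 (minus strand) for BCL2L1, chr19:48954625-48954874 (plus strand) for BAX and chr15:40108880-40109129 (minus strand) for BMF.
PMAIP1: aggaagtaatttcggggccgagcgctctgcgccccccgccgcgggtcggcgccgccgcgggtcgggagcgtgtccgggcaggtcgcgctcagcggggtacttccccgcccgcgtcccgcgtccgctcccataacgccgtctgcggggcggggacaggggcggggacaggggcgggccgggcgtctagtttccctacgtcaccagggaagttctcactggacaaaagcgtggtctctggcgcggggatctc
BCL2L1: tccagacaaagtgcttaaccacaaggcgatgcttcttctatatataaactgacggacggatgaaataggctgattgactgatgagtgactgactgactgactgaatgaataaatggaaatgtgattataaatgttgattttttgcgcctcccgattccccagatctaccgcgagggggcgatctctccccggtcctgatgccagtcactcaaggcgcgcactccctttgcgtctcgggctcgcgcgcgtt
BAX: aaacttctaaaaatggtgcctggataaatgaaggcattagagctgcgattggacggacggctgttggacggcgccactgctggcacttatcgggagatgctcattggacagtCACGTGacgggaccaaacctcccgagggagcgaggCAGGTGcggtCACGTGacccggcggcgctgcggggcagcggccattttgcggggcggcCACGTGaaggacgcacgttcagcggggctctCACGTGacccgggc
BMF: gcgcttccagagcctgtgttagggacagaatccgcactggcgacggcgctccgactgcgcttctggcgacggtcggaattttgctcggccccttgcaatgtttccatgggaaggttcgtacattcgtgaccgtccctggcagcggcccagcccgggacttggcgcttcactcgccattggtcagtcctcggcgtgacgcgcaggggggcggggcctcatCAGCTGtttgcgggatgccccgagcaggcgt
The PMAIP1 and BCL2L1 windows hold no CANNTG. The BAX window holds 5, of which 4 are CACGTG, at 138, 93, 45 and 14 bases before the start, and 1 is CAGGTG at 103 bases. The BMF window holds 1 CAGCTG, 31 bases before the start, and the window of a second BMF start, within the gene, holds 2 CAGGTG. BBC3 has a CAAATG and a CACGTG. No CANNTG was found in the windows of BCL2, BAK1 and BCL2L11 or in the second BCL2L1 window. All 250 bases of the BCL2, BCL2L11 and second BCL2L1 windows lie inside the deposited gene spans, so for BCL2 and BCL2L11 no sequence before the deposited gene start was searched. Of 35116 RefSeq windows of this length, 61.8% hold CANNTG on either strand, 17.5% hold CAGGTG or its reverse complement CACCTG, and 14.0% hold CAGCTG. The last 2 kinds are also counted in the first. A match is only a match of letters, and the study's HA ChIP-seq was not analysed here.

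The survival genes BCL2 and BCL2L1 were higher with every E protein and in the same order of libraries, while MCL1 stayed near its vector level. BCL2 (ENSG00000171791, GRCh38 chromosome 18, 63123346 to 63320128) had 516 reads in vector, 800 in HEB, 1180 in E2A and 1628 in E2-2, or 33.1, 48.3, 66.8 and 107 CPM. Each step in this order had an interval that excluded 1. Against vector, the fold of BCL2 was 3.25 (2.94 to 3.59) with E2-2, 2.02 (1.82 to 2.24) with E2A and 1.46 (1.31 to 1.64) with HEB. Those with E2-2 and E2A were called, the latter just inside the rule.

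BCL2L1 (ENSG00000171552, chromosome 20, 31664452 to 31723989) had 409 reads in vector, 658 in HEB, 867 in E2A and 1133 in E2-2, or 26.2, 39.8, 49.1 and 74.7 CPM. Again every neighbouring pair of libraries differed beyond counting error. Its fold over vector was 2.85 (2.54 to 3.20) in E2-2, a call. The folds of 1.87 (1.66 to 2.11) in E2A and 1.52 (1.34 to 1.72) in HEB fell short of the rule. ABALON, a non-coding gene that overlaps BCL2L1, had 9 to 20 reads, few beside those of BCL2L1.

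MCL1 (ENSG00000143384, chromosome 1, 150574551 to 150579738), whose short-lived protein is bound by NOXA, had 5187 reads in vector, 5091 in HEB, 5053 in E2A and 5034 in E2-2. The levels were 333, 308, 286 and 332 CPM. E2-2 and vector could not be told apart (1.00-fold lower, 0.964 to 1.04), and the sign of this difference changes with the scaling of libraries. Vector exceeded E2A 1.16-fold (1.12 to 1.21) and HEB 1.08-fold (1.04 to 1.12), small differences that its many reads resolve.

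**Figure D1:**
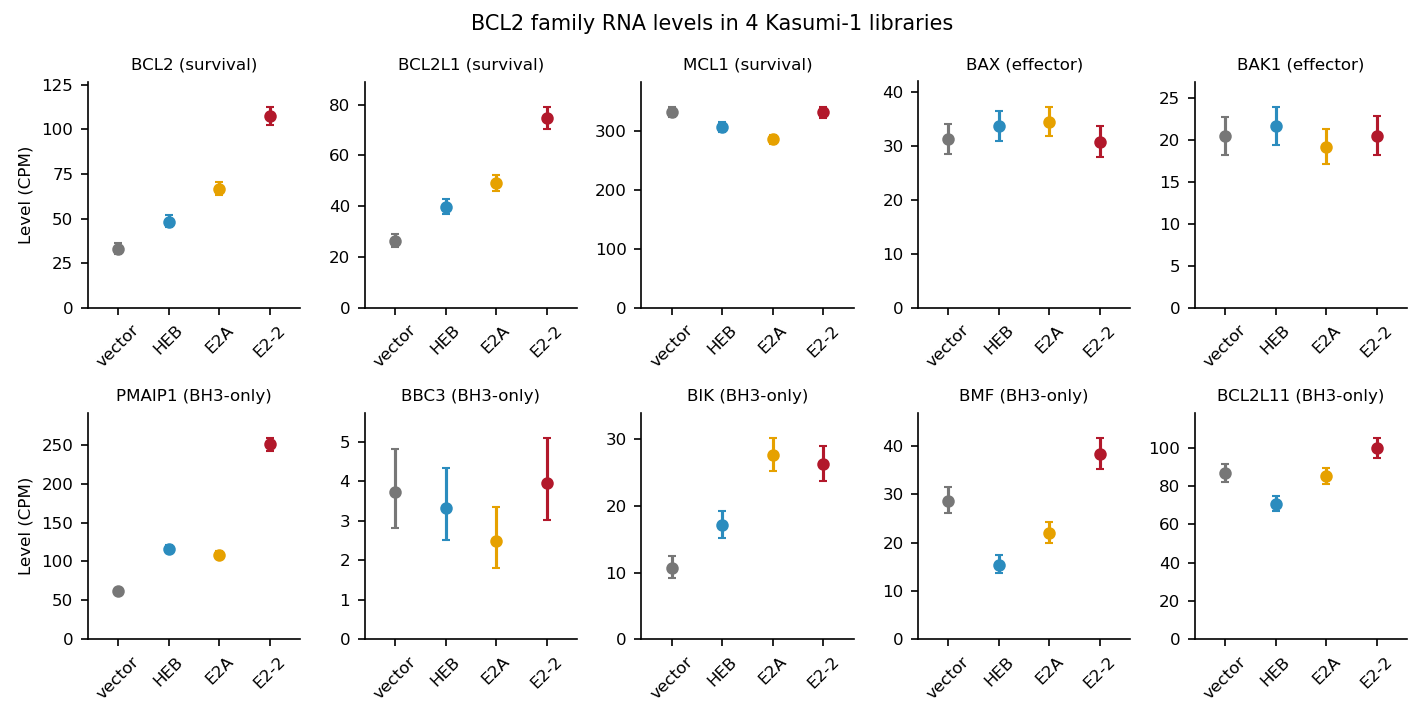
Levels of the 10 genes in CPM (linear axes from 0, a separate scale for each gene), 1 point per RNA library with its 95% counting interval. BCL2 and BCL2L1 climb from vector through HEB and E2A to E2-2, PMAIP1 reaches 250.4 CPM in E2-2, and BAX and BAK1 are level.

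The effectors BAX and BAK1, which form the pore once activated, did not differ between any 2 libraries beyond counting error. BAX (ENSG00000087088, chromosome 19, 48954815 to 48961798) had 487 reads in vector, 557 in HEB, 609 in E2A and 467 in E2-2, or 31.2, 33.7, 34.5 and 30.8 CPM. From its lowest library to its highest, BAX differed 1.12-fold (0.991 to 1.27). BAX in E2-2 was 1.01-fold lower than in vector (0.891 to 1.15), and with other scalings of the libraries that sign changes. BAK1 (ENSG00000030110, chromosome 6, 33572547 to 33580293) had 318 reads in vector, 357 in HEB, 337 in E2A and 310 in E2-2, or 20.4, 21.6, 19.1 and 20.4 CPM. Its lowest and highest libraries differed 1.13-fold (0.972 to 1.32). These intervals leave room for differences of up to 1.27-fold in BAX and 1.32-fold in BAK1 from counting error alone.

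Among the 5 BH3-only genes, PMAIP1 and BIK were higher with all 3 E proteins. PMAIP1 (ENSG00000141682, chromosome 18, 59899948 to 59904306) encodes NOXA, which binds MCL1. It had 962 reads in vector, 1912 in HEB, 1924 in E2A and 3797 in E2-2, or 61.7, 116, 109 and 250.4 CPM. E2-2 stood above all the others, E2A and HEB were indistinguishable (1.06-fold, 0.995 to 1.13), and vector was lowest. With E2-2 PMAIP1 reached 4.06 times the vector level (3.78 to 4.36), the largest fold against vector among these 10 genes. With HEB the fold was 1.87 (1.73 to 2.03) and with E2A 1.77 (1.63 to 1.91), both under the rule.

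BIK (ENSG00000100290, chromosome 22, 43110748 to 43129712), a BH3-only protein of the endoplasmic reticulum, had 167 reads in vector, 282 in HEB, 487 in E2A and 398 in E2-2, or 10.7, 17.0, 27.6 and 26.2 CPM. E2A was highest here, and E2A and E2-2 could not be told apart (1.05-fold, 0.918 to 1.20). Over vector the fold of BIK was 2.57 (2.16 to 3.09) with E2A and 2.45 (2.04 to 2.95) with E2-2, both called, and 1.59 (1.31 to 1.94) with HEB.

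BMF and BCL2L11 were ordered differently, with HEB lowest and E2-2 highest. BMF (ENSG00000104081, chromosome 15, 40087890 to 40108892), which senses detachment and cytoskeletal stress, had 448 reads in vector, 256 in HEB, 390 in E2A and 582 in E2-2, or 28.7, 15.5, 22.1 and 38.4 CPM. E2-2 exceeded vector 1.34-fold (1.18 to 1.51), while vector exceeded E2A 1.30-fold (1.13 to 1.49) and HEB 1.86-fold (1.59 to 2.17). These differences lay under the rule, yet every neighbouring pair in the order was separated beyond counting error. Its first promoter window, printed above, holds a CAGCTG, as do 14.0% of RefSeq windows, and its second holds 2 CAGGTG. A part of these motifs in the levels of BMF was not tested.

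BCL2L11 (ENSG00000153094, chromosome 2, 111119378 to 111168447) encodes BIM, which can bind every survival member and is known as a mediator of death upon cytokine loss. It had 1350 reads in vector, 1172 in HEB, 1504 in E2A and 1514 in E2-2, or 86.5, 70.8, 85.1 and 99.8 CPM. Vector and E2A were indistinguishable (1.02-fold, 0.944 to 1.10). E2-2 exceeded vector 1.15-fold (1.07 to 1.24) and vector exceeded HEB 1.22-fold (1.13 to 1.32), both far under the rule.

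BBC3 (ENSG00000105327, chromosome 19, 47220822 to 47232766), the PUMA gene, whose protein binds all survival members, had few reads: 58 in vector, 55 in HEB, 44 in E2A and 60 in E2-2, or 3.72, 3.32, 2.49 and 3.96 CPM. No difference from vector was detectable at this depth. The intervals span 0.729 to 1.55 for the ratio of E2-2 to vector, and E2A, the lowest, was 1.49-fold (0.992 to 2.26) lower than vector. Between E2-2 and E2A the fold was 1.59 (1.06 to 2.40).

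**Figure D2:**
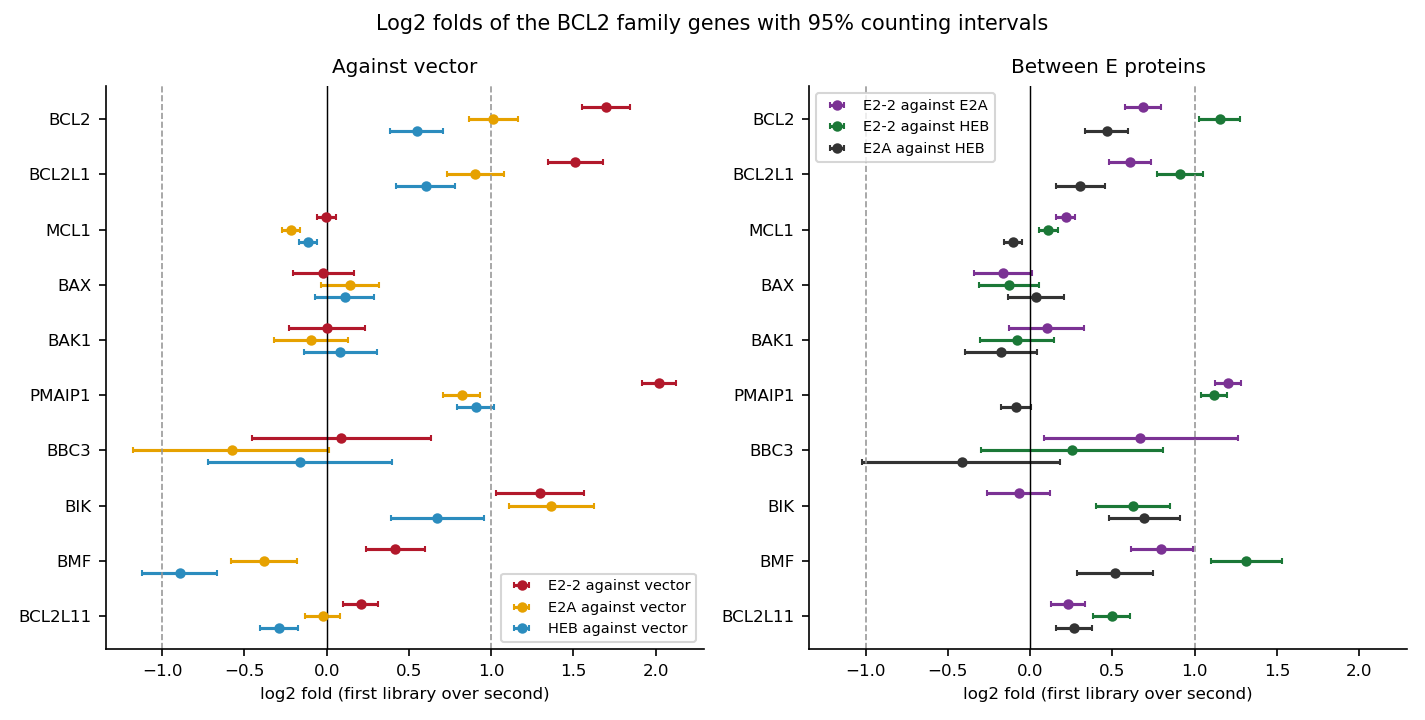
Log2 folds of the 10 genes with 95% counting intervals, against vector on the left and between E proteins on the right. Dashed lines mark a 2-fold difference, and PMAIP1, BCL2, BCL2L1 and BIK lie to the right of the upper line in E2-2 against vector.

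Counted together, 4 of the 10 genes were called higher and 0 lower in E2-2 against vector, beside 8.45% of 13884 measured genes called higher and 3.55% called lower. In E2A against vector 2 of 10 were called higher and 0 lower, beside 4.89% and 1.58% of 13901 genes. In HEB against vector 0 of 10 were called in either direction, beside 2.55% called higher and 1.23% called lower of 13695 genes. The median log2 fold of the 10 genes was 0.31 in E2-2, 0.06 in E2A and 0.10 in HEB, where the medians of all measured genes were -0.03, -0.01 and 0.01. An interval that excludes 1 is a weaker criterion at this depth. In E2-2 it was met by 6 higher genes (BCL2, BCL2L1, PMAIP1, BIK, BMF, BCL2L11) and 0 lower, beside 27.3% and 30.8% of all measured genes. In E2A 4 were higher (BCL2, BCL2L1, PMAIP1, BIK) and 2 lower (MCL1, BMF), beside 22.7% and 24.2%. In HEB the 4 higher genes were again BCL2, BCL2L1, PMAIP1 and BIK and the 3 lower were MCL1, BMF and BCL2L11, beside 21.1% and 16.9%. The 3 comparisons share the vector library, so a high or low value there enters all of them.

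**Figure D3:**
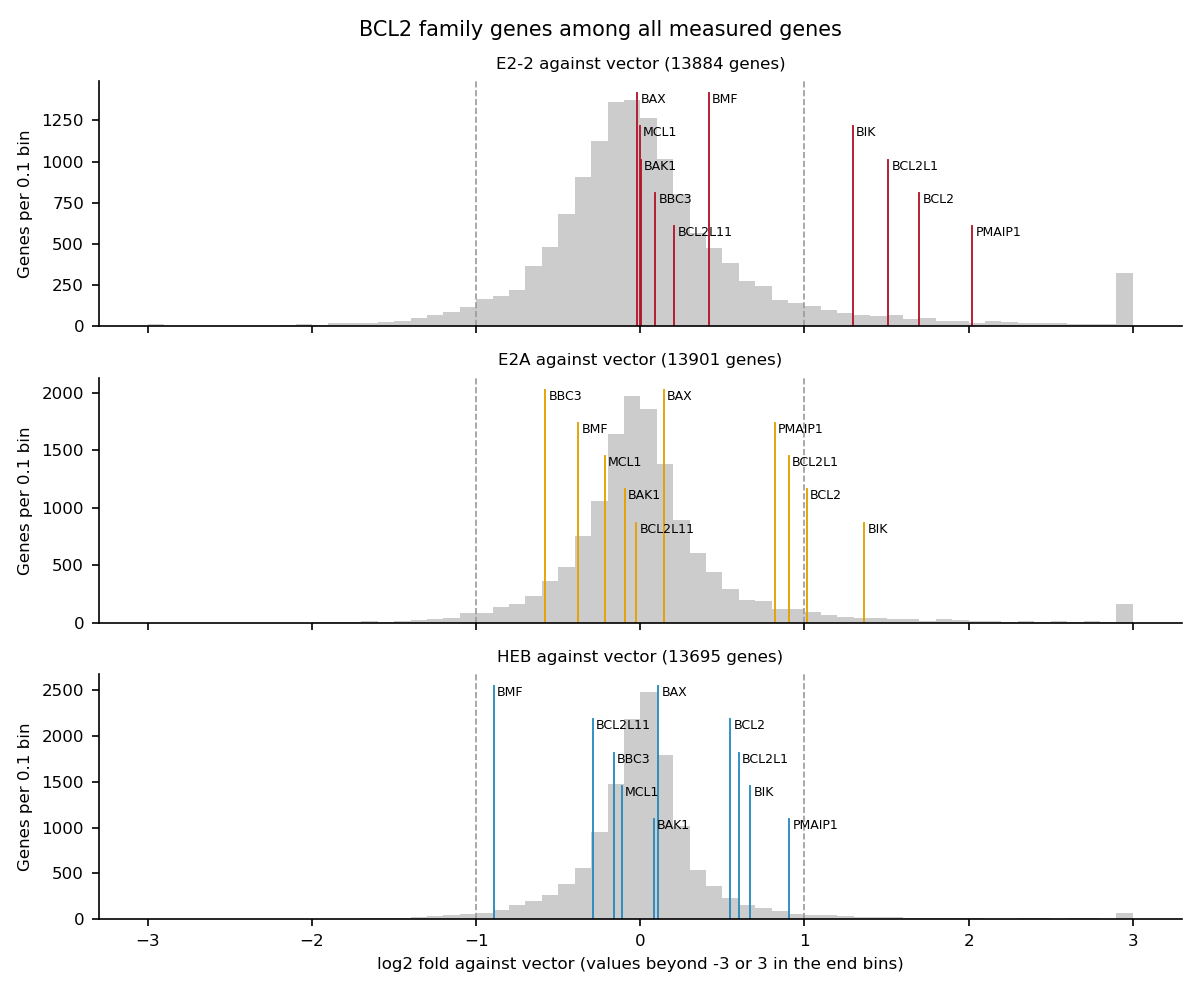
Distribution of log2 folds against vector over all measured genes (grey, number of genes per 0.1 bin) with the 10 genes as coloured lines, whose heights only separate the names. Dashed lines mark a 2-fold difference, past which lie 4 of the genes in E2-2, 2 in E2A and 0 in HEB.

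The E proteins were then compared directly, which leaves vector out. Against E2A, E2-2 had 1 called gene of 10, PMAIP1, at 2.30-fold (2.18 to 2.43) higher, beside 3.63% of genes called higher and 1.61% lower. Without being called, BCL2 was higher in E2-2 by 1.61-fold (1.49 to 1.73), BCL2L1 by 1.52-fold (1.39 to 1.67) and BMF by 1.74-fold (1.53 to 1.98). Against HEB, E2-2 had 3 called genes, all higher, beside 6.09% of genes called higher and 1.57% lower. They were BMF at 2.48-fold (2.14 to 2.88), BCL2 at 2.22-fold (2.04 to 2.42) and PMAIP1 at 2.17-fold (2.05 to 2.29), and BCL2L1 was 1.88-fold (1.71 to 2.07) higher. Between E2A and HEB 0 of 10 genes were called, beside 2.38% called higher and 0.696% lower. The widest difference there was BIK, 1.62-fold (1.39 to 1.88) higher in E2A. Intervals wholly below 1 were seen for 0 family genes in either direct comparison of E2-2, beside 23.3% of genes against E2A and 28.8% against HEB.

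Survival depends on the balance between members, so read ratios of 9 pairs were set against the same ratios in vector. Such a ratio does not depend on how libraries are scaled, and only its change between libraries can be read, since the genes differ in length. The ratios come from the same reads as the folds above. As MCL1 stayed near its vector level, ratios to it largely repeat the folds of the other gene. BCL2 reads per MCL1 read went from 0.0995 in vector to 0.157 in HEB, 0.234 in E2A and 0.323 in E2-2, and the last is 3.25-fold (2.92 to 3.62) the vector value. BCL2L1 per MCL1 followed, at 0.0789 in vector, 0.129 in HEB, 0.172 in E2A and 0.225 in E2-2. BCL2L1 per BCL2, by contrast, did not differ from vector beyond counting error in any library, with 0.878 of the vector value in E2-2. The interval leaves room for a ratio 0.753 to 1.02 times that of vector.

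On the death-promoting side, PMAIP1 reads per MCL1 read went from 0.185 in vector to 0.376 in HEB, 0.381 in E2A and 0.754 in E2-2, the last 4.07-fold (3.75 to 4.41) the vector value. The pairs of BCL2L11, BMF and BBC3 with BCL2 moved the other way. They all share BCL2, whose reads were higher in every treated library, so they are not separate results. PMAIP1 and BIK, which were also higher there, were not paired with BCL2. BCL2L11 reads per BCL2 read were 2.62 in vector, 1.47 in HEB, 1.27 in E2A and 0.930 in E2-2, which is 0.355 (0.314 to 0.403) of the vector value in E2-2. BMF per BCL2 was lower in all 3 treated libraries, at 0.412 (0.351 to 0.484) of vector in E2-2, 0.381 (0.320 to 0.453) in E2A and 0.369 (0.304 to 0.447) in HEB. BBC3 per BCL2 was at 0.328 (0.222 to 0.486) of vector in E2-2, 0.332 (0.216 to 0.507) in E2A and 0.612 (0.408 to 0.916) in HEB. BIK per BCL2L1 was 1.38 (1.11 to 1.71) times the vector value in E2A, with intervals that held 1 in E2-2 and HEB, and BAX per BAK1 had no interval that excluded 1. These are ratios of RNA reads, and protein was not measured here.

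**Figure D4:**
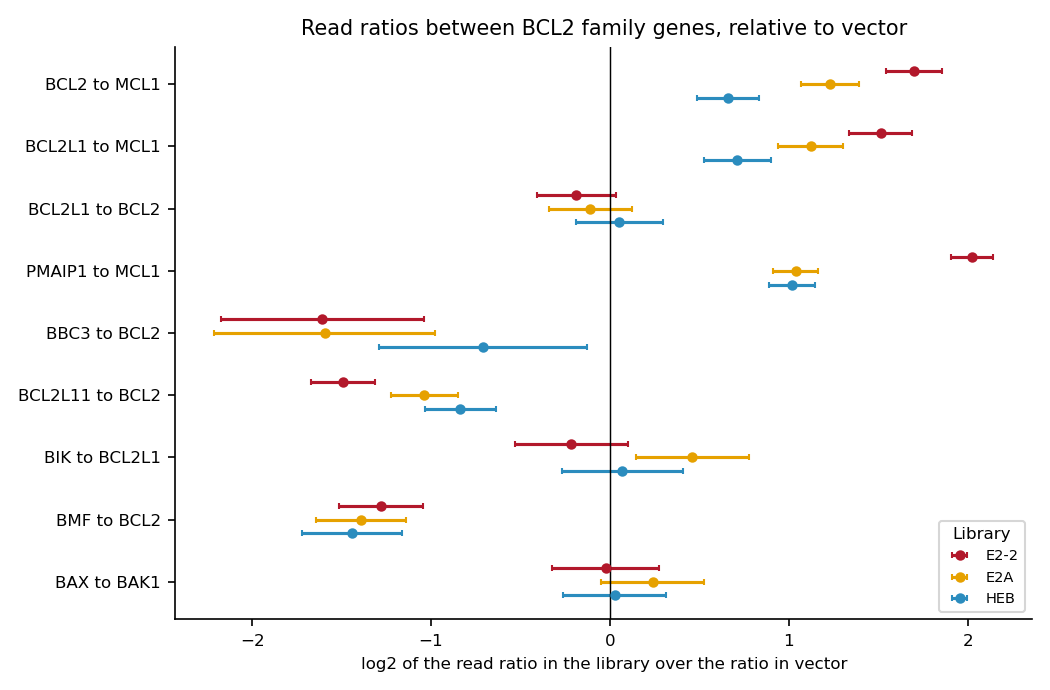
Ratio of the reads of 2 family genes in each treated library over the same ratio in vector, as log2 with 95% exact counting intervals. Ratios to MCL1 lie to the right of 0, ratios of BBC3, BCL2L11 and BMF to BCL2 lie to the left, and BCL2L1 to BCL2 and BAX to BAK1 straddle 0.

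Of 90 related genes in 9 lists, 78 were measured in E2-2 against vector, with 8 called higher (10.3%) and 2 lower (2.56%). These shares are near the 8.45% and 3.55% over all genes and are no result about the related genes. Other BCL2 family genes were mostly not called: BCL2L2, a survival gene, was 1.12-fold (0.952 to 1.32) lower in E2-2. Of 7 measured death-promoting relatives only BOK was called, 2.26-fold (1.86 to 2.77) lower in E2-2. It had 333 reads in vector, 291 in HEB, 269 in E2A and 143 in E2-2. Without a call, BNIP3L was 1.42-fold (1.31 to 1.53) higher and BCL2L13 1.20-fold (1.10 to 1.31) lower in E2-2. Of 12 genes of the apoptosome and caspases, 1 was called in E2-2 and in E2A, the mitochondrial nuclease gene ENDOG. That is 8.33% of the list, beside 8.45% of all genes called higher in E2-2 and 4.89% in E2A. ENDOG had 132 reads in vector, 247 in HEB, 303 in E2A and 397 in E2-2. Its folds over vector were 3.09 (2.53 to 3.80) for E2-2 and 2.03 (1.65 to 2.51) for E2A. APAF1, the scaffold of the apoptosome, was 1.44-fold (1.29 to 1.61) higher in E2-2 and CASP9 1.21-fold (0.996 to 1.47) lower, neither called.

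PMAIP1 and BBC3 are known to respond to DNA damage and stress, and other genes of that response were listed beside them. Of 17 measured genes outside the family, 4 were called higher in E2-2 and 0 lower, 2 higher and 1 lower in E2A, and 1 higher and 0 lower in HEB. Over all genes, 8.45% were called higher and 3.55% lower in E2-2, 4.89% and 1.58% in E2A, and 2.55% and 1.23% in HEB. BTG2, an antiproliferative gene, had 22 reads in vector, 51 in HEB, 78 in E2A and 267 in E2-2 and was called in all 3 comparisons. Higher in E2-2 were also CDKN1A, which encodes the cell cycle inhibitor p21 (3.33-fold, 2.96 to 3.76), FAS (3.09-fold, 1.69 to 5.96) and ZMAT3 (2.05-fold, 1.68 to 2.51). In E2A the called genes besides BTG2 were FAS, 2.71-fold (1.48 to 5.22) higher, and the death receptor gene TNFRSF10B, 2.16-fold (1.82 to 2.56) lower. MDM2, which encodes a ubiquitin ligase, was 1.36-fold (1.22 to 1.51) higher in E2-2 and not called. It was 1 of 4 uncalled genes whose interval lay above 1 in E2-2, and 5 others had an interval below 1. Among those 5 were TNFRSF10B, 1.98-fold (1.67 to 2.36) lower, the stress-response gene SESN2, 1.81-fold (1.56 to 2.11) lower, and the nuclease gene AEN, 1.42-fold (1.28 to 1.57) lower. The median log2 fold of the list was 0.12 in E2-2, 0.06 in E2A and 0.19 in HEB.

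Of 13 measured genes of the death receptor pathway, 1 was called higher and 1 lower in E2-2, 1 higher and 2 lower in E2A, and 0 in HEB. Beside this, 8.45% of all measured genes were called higher and 3.55% lower in E2-2. The shares over all genes were 4.89% and 1.58% in E2A, and 2.55% and 1.23% in HEB. FAS was the higher gene in both, with 15 reads in vector, 28 in HEB, 46 in E2A and 45 in E2-2. The lower genes were the decoy receptor gene TNFRSF10C in E2-2 (2.38-fold, 1.05 to 5.86), with 22 reads in vector and 9 in E2-2, and in E2A TNFRSF10B and its ligand gene TNFSF10, the latter 2.36-fold (1.91 to 2.92). Of 8 measured inhibitors of apoptosis and antagonists, XAF1, an antagonist of XIAP, was the single called gene, 3.00-fold (1.88 to 4.94) higher in E2-2. BIRC5, the survivin gene, was 1.37-fold (1.30 to 1.45) and XIAP 1.35-fold (1.21 to 1.5) higher in E2-2, under the rule.

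Of 8 mitochondrial partners, VDAC3 was called in E2-2 at 2.10-fold (2.01 to 2.19) and lay just under the rule in E2A at 1.97-fold (1.88 to 2.06), while VDAC2, which binds BAK, was 1.12-fold (1.06 to 1.17) lower in E2-2. VDAC3 has processed pseudogenes, with which it may share reads. Of 6 measured regulators of MCL1 and BIM protein stability, 1 was called, FBXW7, which marks MCL1 for degradation, at 2.04-fold (1.86 to 2.23) higher in E2-2. With 8.45% of all genes called higher and 3.55% lower in E2-2, 1 call in a list this short is no result about the list. Of 9 measured transcription regulators of the family, 0 were called against vector. In E2-2 the intervals of 4 of these regulators lay above 1 and those of 4 below. FOXO3, which is known to act on BCL2L11, PMAIP1 and BBC3, was 1.53-fold (1.44 to 1.62) lower in E2-2. TRIB3 was 1.84-fold (1.65 to 2.05) lower there and FOXO1 1.19-fold (1.02 to 1.37) higher. A part of these regulators in the family's values was not tested. All these lists were written with earlier results of the data known.

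Genes with a pattern most like a called family gene were sought among 8831 genes with at least 100 reads in every library, by the root mean square difference of the 3 log2 folds against vector. Nearest to BCL2 were INSIG1 (0.07), ARHGAP25 (0.09) and NFKBID (0.10). Nearest to BCL2L1 were RIN3 (0.05), SYNJ1 (0.05) and CPEB4 (0.06). PMAIP1 had no gene as close, the nearest being RASSF2 (0.14), SUSD6 (0.15) and MPC1 (0.17). For BIK they were MXRA7 (0.08), MMP25 (0.09) and GPR162 (0.10), and MMP25, for example, was 2.58-fold higher in E2-2, 2.64-fold in E2A and 1.75-fold in HEB. With 4 libraries that share 1 vector, this likeness is a description only.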

How the data were processed

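RNA from 4 Kasumi-1 libraries, 1 per group by their labels, was sequenced. Among the tools in the submitters' processing notes are HTSeq 0.9.1, a read counter, and TopHat2 2.0.9, an aligner; both hg19 and hg38 appear there, with no roles given. Annotation and strand setting: not given in the sources used here, so reads of overlapping or antisense genes may be shared. The authors deposited whole-number read counts per gene and, per the file headers, FPKM values. For each of the 10 genes, the count divided by the FPKM and the library total gave the same length in every library. For MCL1 that length was 9519 bases against a gene span of 5188, so levels were not compared between genes, and FPKM served only as an alternative.

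Counts were scaled with edgeR 4.0.16 (TMM, R 4.3.3) over the 4 libraries. Fold intervals are 95% exact conditional binomial (Clopper-Pearson) intervals and level intervals are exact Poisson, and read ratios have exact conditional intervals for an odds ratio. They cover counting error only, as independence of the reads was not shown. A count of 0 was set to 3 reads, 0.170 to 0.198 CPM. A test across samples needs replicates, which these groups lack. Python 3.11.15, numpy 2.4.6, scipy 1.17.1, pandas 2.3.3 and matplotlib 3.10.9 were used, and the call rule was tested on simulated data. The simulated reads held counting error only, so the test cannot show how the rule behaves with differences between cultures.

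All 10 genes, the transduced genes and the genes of the lists called against vector (at most 4 per list and comparison) are named. The 3 genes most like each called member are named too. Calls of listed genes in the direct comparisons between E proteins are not described. The members, lists and rules were chosen with earlier results of these data known. Alternatives were scaling by library totals or DESeq2 1.42.0 size factors, FPKM ratios, minimums of 100 or 0 reads, and thresholds of 1.5-fold or 3-fold. Promoter windows are from RefSeq (GRCh38.p14). The HA ChIP-seq libraries and inputs, taken 3 days after infection, were not analysed here. For 1 listed gene the result is not reported here.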

Additional observations from a re-analysis of the deposited data

Results flagged for a closer look

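BMF and BCL2L11 moved in opposite directions from vector with different E proteins, each with a counting interval that excluded 1. The log2 fold of BMF was 0.42 in E2-2, -0.38 in E2A and -0.89 in HEB. The log2 fold of BCL2L11 was 0.21 in E2-2 and -0.29 in HEB. With 1 library per group, these differences between E proteins were not tested across cultures.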

How the results depend on the processing

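No paired analysis was possible because each group has 1 library. No library could be left out for the same reason. The number of BCL2 family genes called was the same in all 6 comparisons when libraries were scaled by their totals or by DESeq2 size factors, when FPKM ratios were used, and with at least 100 reads or no minimum. FPKM folds only repeat those by library totals, since each gene's length was the same in every library. The read minimums could not change these calls. Every called family gene had more than 100 reads in each library, and all 10 genes already passed the minimum of 30. The fold threshold does set the counts. At 1.5-fold, 4 genes were called in E2A against vector, 4 in HEB against vector (BCL2L1, PMAIP1 and BIK higher, BMF lower), 5 in E2-2 against E2A, 5 in E2-2 against HEB and 1 in E2A against HEB. At 3-fold, 2 were called in E2-2 against vector (BCL2 and PMAIP1) and 0 in E2A against vector, E2-2 against E2A and E2-2 against HEB. Of the 78 measured related genes, 10, 5 and 1 were called in E2-2, E2A and HEB against vector by the 2-fold rule. Over all measured genes that rule called 12.0%, 6.47% and 3.78% in either direction, so these counts are no result about the related genes. The counts were 23, 11 and 6 at 1.5-fold, and 5, 1 and 0 at 3-fold. The share of all measured genes called was not computed at 1.5-fold or 3-fold. The counts at these thresholds therefore show only how the calls depend on the threshold. With at least 100 reads the count in HEB was 0, since BTG2 had 22 reads in vector and 51 in HEB. All 60 log2 folds of the family genes stayed inside their counting intervals under the other scalings. The sign changed for MCL1 (-0.00 to 0.04) and BAX (-0.02 to 0.03) in E2-2 against vector, both near 0. All 27 read ratios were the same with FPKM. That outcome was fixed in advance, since each gene's length was the same in every library, so it is no separate check. Depth limits BBC3 most, with 44 to 60 reads per library.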

Other observations

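Some death-related genes lay outside the calls for want of reads or by a narrow margin. They were picked after their values were seen. HRK, a BH3-only gene known mainly from neurons, had 14 reads in E2-2 against 1 in vector, 2 in HEB and 2 in E2A, a ratio of E2-2 to vector of 14.4 (2.19 to 609), with too few reads in the 2 libraries for a call. TP73, a transcription factor gene, had 21 reads in E2A against 1 in vector, 4 in HEB and 3 in E2-2, a ratio of E2A to vector of 18.5 (2.98 to 767). CASP8, the initiator caspase of death receptors, had 1769 reads in vector, 1141 in HEB, 1491 in E2A and 869 in E2-2, 1.98-fold (1.82 to 2.15) lower in E2-2. TNFRSF10B was 1.98-fold (1.67 to 2.36) lower in E2-2, with 404 reads in vector and 198 in E2-2.

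BCL2A1, another survival gene of the family that many myeloid cells express, had 5 reads in vector, 3 in HEB, 1 in E2A and 4 in E2-2. BCL2L10 had 1 read in E2A and 0 in the other libraries, a count that allows up to 3 reads in each.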
